A study of Mus musculus with 9 samples.

Results

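The genes of mitosis and chromosome segregation were followed in erythroblasts, the nucleated precursors of red cells, sorted from mouse spleen. The set was 51 genes given by name and found by symbol in the deposited table, which lists 20368 genes. All 51 were at 1 FPKM or more in at least 3 libraries and so entered the fit of 9543 genes. FPKM is an abundance per transcript length and library depth, which lets levels be set beside each other between genes. In the deposited values the scale between libraries was that of median-of-ratios size factors and not of total reads. Comparisons between libraries rest on that scale. The mice were 4 weeks old, on the C57BL/6 strain, and were wildtype, heterozygous (Dhh+/-) or knockout (Dhh-/-) for Dhh, the gene of the secreted ligand Desert hedgehog, with 3 libraries per genotype. Splenocytes were stained and sorted by flow cytometry for CD71, the transferrin receptor, together with Ter119, an erythroid surface antigen, in all 3 groups. The labels describe the null allele only as a knockout, name no tissue-restricted Cre, and do not tie each library to a mouse of its own, so the tests reflect only how these libraries vary, which may be technical. Dhh was listed at 0 in 8 of 9 libraries, all 3 wildtype ones among them, and at 0.0267 FPKM in heterozygous replicate 1, so its own level cannot check the genotypes.

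A dividing cell enters mitosis when cyclin A and cyclin B activate the kinase Cdk1, condenses its chromosomes, attaches them to the spindle through kinetochores, and holds back anaphase until the spindle checkpoint is satisfied. The anaphase-promoting complex then marks securin and the cyclins for destruction, separase opens the cohesin rings, and the cell is cleaved. Erythroblasts divide several times while they fill with hemoglobin, and leave the cell cycle before they expel the nucleus. Most of the genes described here are transcribed in late S phase, G2 and mitosis, under promoters known for CCAAT boxes, the sites of the factor NF-Y, and for the cell cycle genes homology region, a site of the DREAM and B-Myb complexes.

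The promoters of the members were read for those letters, as a description with no test. RefSeq promoters on the build GRCm38, the assembly also called mm10, were matched by symbol for 43 of the 51 genes, as 45 promoters because Ect2 and Prc1 have a pair each. Within the 250 bases before the RefSeq start, on both strands, CCAAT was present in 35 of 45 promoters (77.8%), against 33.8% of all 32851 promoters of the same length. The homology region was searched as TTTGAA or TTTAAA, and 23 of 45 (51.1%) held either, against 25.2% of all promoters. Both kinds stood together in 21 of 45 (46.7%), against 8.78% of all, and 48.9% of the member promoters held CCAAT at least 2 times, against 10.1%. The E2F letters TTTGGCG or TTTCGCG were in 3 of 45 (6.67%), against 1.93%. Neighbouring matches of different letters may share bases, TTTAAA reads the same on both strands, and a match is a run of letters, not a measured site. None of the letters was found in 8 promoters, those of Nuf2, Nusap1, Ncaph, Mad2l1, Anln, Pttg1, Ndc80 and Kif20b. RefSeq and GENCODE M21 placed the start within 100 bases of each other in 37 of 45 promoters. For Pttg1, Kif4, Cdca3, Cdca8 and Kif2c the RefSeq start lay 270, 328, 629, 2394 and 3867 bases inside the GENCODE gene. Their 250-base windows thus lay wholly inside it, and they are included in the counts above.

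Stretches of 150 bases upstream of 6 members are shown 5′ to 3′ on the gene's strand, with the matched letters of any of the 3 kinds, or their reverse complements, in capitals. They were chosen as members with several matches, after the matches were seen, and some of them share a role. They lie at chr7:135716380-135716529 (minus strand), chr4:118437353-118437502 (minus), chr19:37376232-37376381 (plus), chr10:69352939-69353088 (minus), chr9:70421555-70421704 (minus) and chr2:164769748-164769897 (plus). Each stretch is upstream of the GENCODE start of its own gene. Those of Mki67, Cdc20, Kif11 and Cdk1 hold CCAAT letters and homology region letters together, that of Cdk1 also an E2F run, and those of Ccnb2 and Ube2c hold CCAAT letters 3 times each.
Mki67: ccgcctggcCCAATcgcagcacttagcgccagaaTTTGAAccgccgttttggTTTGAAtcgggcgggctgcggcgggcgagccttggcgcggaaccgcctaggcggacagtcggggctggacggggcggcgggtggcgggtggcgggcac
Cdc20: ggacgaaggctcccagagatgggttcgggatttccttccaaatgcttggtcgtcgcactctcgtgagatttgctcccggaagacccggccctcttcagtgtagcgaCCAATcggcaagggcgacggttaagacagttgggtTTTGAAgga
Kif11: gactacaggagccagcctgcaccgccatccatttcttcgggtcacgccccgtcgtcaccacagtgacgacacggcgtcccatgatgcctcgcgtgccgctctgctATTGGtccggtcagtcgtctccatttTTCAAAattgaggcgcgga
Cdk1: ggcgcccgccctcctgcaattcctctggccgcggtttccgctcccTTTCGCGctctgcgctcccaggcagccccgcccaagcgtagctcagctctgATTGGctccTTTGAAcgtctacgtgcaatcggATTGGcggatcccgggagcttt
Ccnb2: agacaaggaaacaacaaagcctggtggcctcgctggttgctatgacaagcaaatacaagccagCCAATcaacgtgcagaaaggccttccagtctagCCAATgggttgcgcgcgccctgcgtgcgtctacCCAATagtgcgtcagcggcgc
Ube2c: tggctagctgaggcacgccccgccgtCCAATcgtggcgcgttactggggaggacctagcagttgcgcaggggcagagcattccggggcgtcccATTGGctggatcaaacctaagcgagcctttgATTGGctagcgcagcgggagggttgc

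The libraries differed in depth and in the RNA of other blood cells. Whole reads could be recovered from the deposited values, and each library held between 7052111 of them (heterozygous replicate 2) and 14231427 (heterozygous replicate 1). Replicate 2 of each genotype and wildtype replicate 1 had under 10000000 reads and are called the 4 shallower libraries here, and the other 5 the deeper ones. The list of 12 erythroid markers was detected in full in every library, with a summed level of 16822 to 31922 FPKM, led by the beta-globin gene Hbb-bs (4022 to 8985) and Alas2 (2884 to 7458), the first enzyme of heme synthesis. Summed B cell markers ran from 91.7 FPKM in wildtype replicate 3 to 1464 in wildtype replicate 1, led by Cd74 and H2-Aa. Macrophage and monocyte markers ran from 191 in wildtype replicate 3 to 2001 in knockout replicate 2 (Lyz2 and Hmox1 highest), and neutrophil markers from 261 to 1634 (S100a9 and S100a8). T and natural killer cell markers summed to between 9.95 and 204 FPKM (Gzma and Lck), megakaryocyte markers to between 39.2 and 61.8 (Gp9 and Itga2b) and early progenitor markers to between 5.40 and 16.3 (Myb and Gata2). In wildtype replicate 3 the B cell genes Pax5, Fcer2a and Ebf1 and the T cell genes Cd3d, Cd3g and Cd8b1 were listed at 0. Dividing leukocytes use these genes too, and their part in the members' levels was not tested. In bulk libraries, fewer dividing cells and less RNA of these genes per cell cannot be told apart.

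Every member was abundant. The mean over 9 libraries ran from 23.7 FPKM for Kif20b to 937 FPKM for Ube2c, with a median of 125, and each of the 51 lay above the median of 9.404 FPKM over all genes tested. Of the members, 28 were at 100 FPKM or more and 47 at 50 FPKM or more. Together they took 2.66% to 3.56% of the reads of a library, and their summed level ran from 7459 FPKM in knockout replicate 2 to 10692 in wildtype replicate 3. The plot of levels by role shows that abundance did not follow role, since most roles held members several-fold apart. Values below are given for replicates 1, 2 and 3 in that order.

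**Figure D1:**
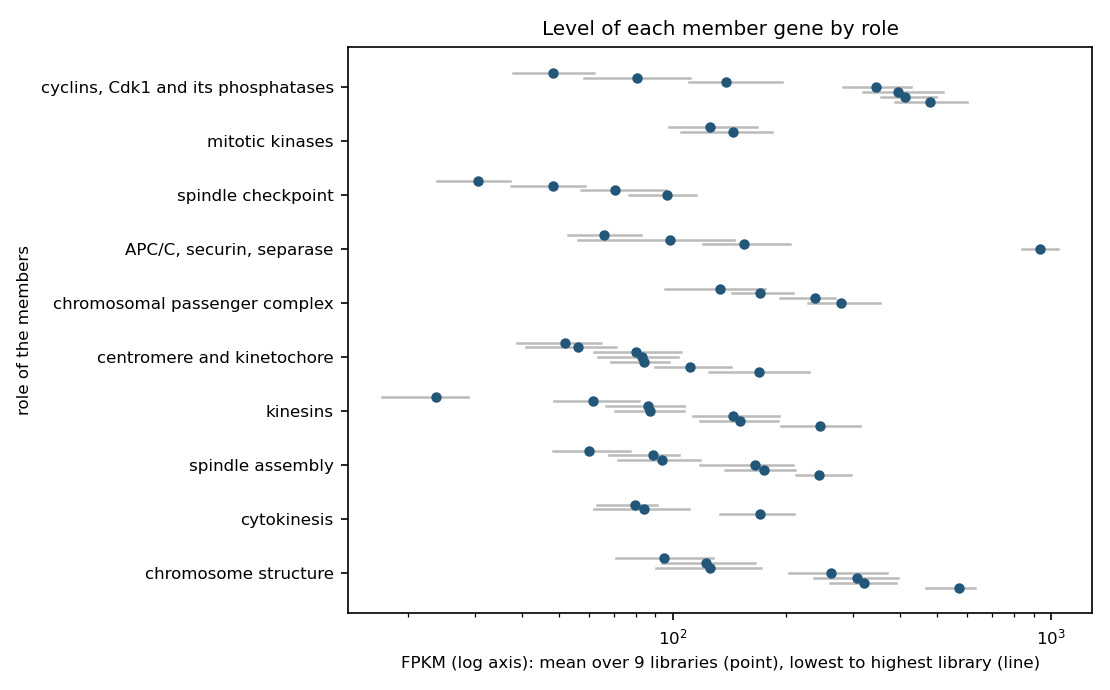
Level of each of the 51 members by role, as FPKM on a log axis. Points are means over 9 libraries and lines join the lowest and the highest library, from Kif20b at 23.7 to Ube2c at 937 FPKM.

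Among the regulators of mitotic entry, Cdca3, which helps the degradation of the Cdk1 inhibitor Wee1, was the most abundant, at 457, 436 and 599 FPKM in wildtype, 458, 401 and 490.1 in heterozygous and 508, 388 and 581 in knockout libraries. Cdc25b, a phosphatase that activates Cdk1, was at 406, 392 and 497 FPKM in wildtype, 421, 434 and 355 in heterozygous and 425, 372 and 399 in knockout libraries. Cyclin B2 (Ccnb2) was at 341, 365 and 516 FPKM in wildtype, 348, 318 and 416 in heterozygous and 417, 319 and 519 in knockout libraries. Cdca3 and Ccnb2 were highest in wildtype replicate 3 and knockout replicate 3 and low in the shallower libraries, whereas Cdc25b varied less, and in all 3 genes the genotypes overlapped. Cdc25c, the other Cdk1 phosphatase of the set, was much lower, at 37.9, 40.5 and 53.3 FPKM in wildtype, 49.3, 42.6 and 51.5 in heterozygous and 54.9, 42.0 and 61.8 in knockout libraries. Cdc25b exceeded Cdc25c 8.53-fold in the means, and by 6.45-fold to 10.7-fold in single libraries. The 3 cyclins kept the order Ccnb2, Ccna2, Ccnb1 in 8 of 9 libraries, with Ccnb2 4.90-fold above Ccnb1 in the means (4.30-fold to 5.85-fold in single libraries). Ccna2, cyclin A2, averaged 346 FPKM, Ccnb1, cyclin B1, 80.6 and Cdk1 itself 138. Ccna2 overlaps Exosc9 on the opposite strand over 12.5% of its exons.

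The mitotic kinases lay close together. Plk1, which acts from entry to cytokinesis, was at 105, 148 and 183 FPKM in wildtype, 155, 139 and 144 in heterozygous and 146, 119 and 159.8 in knockout libraries. Aurka, the centrosomal Aurora kinase, was at 107, 117 and 167 FPKM in wildtype, 129, 107 and 128 in heterozygous and 129.9, 97.6 and 144 in knockout libraries. Both were lowest in a shallower library, wildtype replicate 1 for Plk1 and knockout replicate 2 for Aurka, and highest in wildtype replicate 3.

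The 4 spindle checkpoint genes, which hold the cell in metaphase until every chromosome is attached, summed to between 197 and 305 FPKM in a library. Bub1b, which encodes the checkpoint protein BubR1, was at 84.4, 91.1 and 115 FPKM in wildtype, 98.1, 93.9 and 96.2 in heterozygous and 101, 76.6 and 115 in knockout libraries. Mad2l1, the Mad2 that blocks Cdc20, was at 57.3, 63.2 and 96.1 FPKM in wildtype, 68.4, 57.1 and 69.7 in heterozygous and 77.6, 59.6 and 86.0 in knockout libraries. The kinase Bub1 was at 43.0, 45.9 and 57.1 FPKM in wildtype, 49.6, 42.7 and 47.2 in heterozygous and 54.3, 37.4 and 58.5 in knockout libraries. The order Bub1b, Mad2l1, Bub1, Ttk held in 9 of 9 libraries, with Ttk, the kinase Mps1, at 30.5 FPKM on average, and Bub1b 3.17-fold above it.

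Ube2c, the E2 enzyme that loads ubiquitin for the anaphase-promoting complex, was the most abundant member and ranked 35 among all genes by mean FPKM. The gene (ENSMUSG00000001403, chromosome 2, 164769898 to 164778822, plus strand, mm10) was at 951, 938 and 1046 FPKM in wildtype, 857, 1019 and 841 in heterozygous and 898, 902 and 984 in knockout libraries. Its exons overlap those of Tnnc2 on the opposite strand over 22.8% of their length, and since the strand setting of the counting is not given in the sources used here, reads there could come from either gene. Cdc20, the activator of the complex at anaphase, was at 121, 142 and 192 FPKM in wildtype, 145, 139 and 161 in heterozygous and 158, 128 and 205 in knockout libraries. Ube2c exceeded Cdc20 by 4.8-fold to 7.89-fold in single libraries, and every ratio above 6 was in a shallower library. Espl1, which encodes separase, was at 53.1 to 82.3 FPKM, with a mean of 65.8.

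Pttg1, which encodes securin, the inhibitor of separase, had a library pattern opposite to that of most members. The gene (ENSMUSG00000020415, chromosome 11, 43420250 to 43426251, minus strand, mm10) was at 145, 138 and 74.2 FPKM in wildtype, 56.4, 130.4 and 59.4 in heterozygous and 71.9, 139 and 70.5 in knockout libraries. Each of the 4 shallower libraries, at 130.4 to 145 FPKM, lay above each of the 5 deeper ones, at 56.4 to 74.2 FPKM, across all 3 genotypes, and the mean was 2.08-fold higher in the shallower libraries. In reads, Pttg1 had between 1551 and 2344 per library, a highest-to-lowest ratio of 1.51, whereas the other 50 members had ratios of 1.88 to 3.29 (median 2.59), and 0.555% of all genes tested had a ratio at or below that of Pttg1. The ratio of securin to separase in FPKM ran from 0.772 to 1.05 over the deeper libraries. Over the shallower libraries it ran from 2.23 to 2.74. Hbb-bs had the same shape, with 40348 to 49091 reads in every library and 7642 FPKM or more in the shallower libraries against 5453 or less in the deeper ones. The direction held with quantile normalization and with values rescaled to the library total, where the log2 difference of deeper minus shallower was -1.18 and -1.04 against -1.05 as deposited. Summed erythroid markers also split these libraries, at 28666 to 31922 FPKM in the shallower and 16822 to 21454.5 in the deeper ones. The erythroid mean on the log2(FPKM + 1) scale overlapped, with 10.09 in knockout replicate 2 and 10.135 in knockout replicate 3. Depth, leukocyte RNA and erythroid RNA cannot be told apart between these library groups, and their part in the securin values was not tested.

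**Figure D2:**
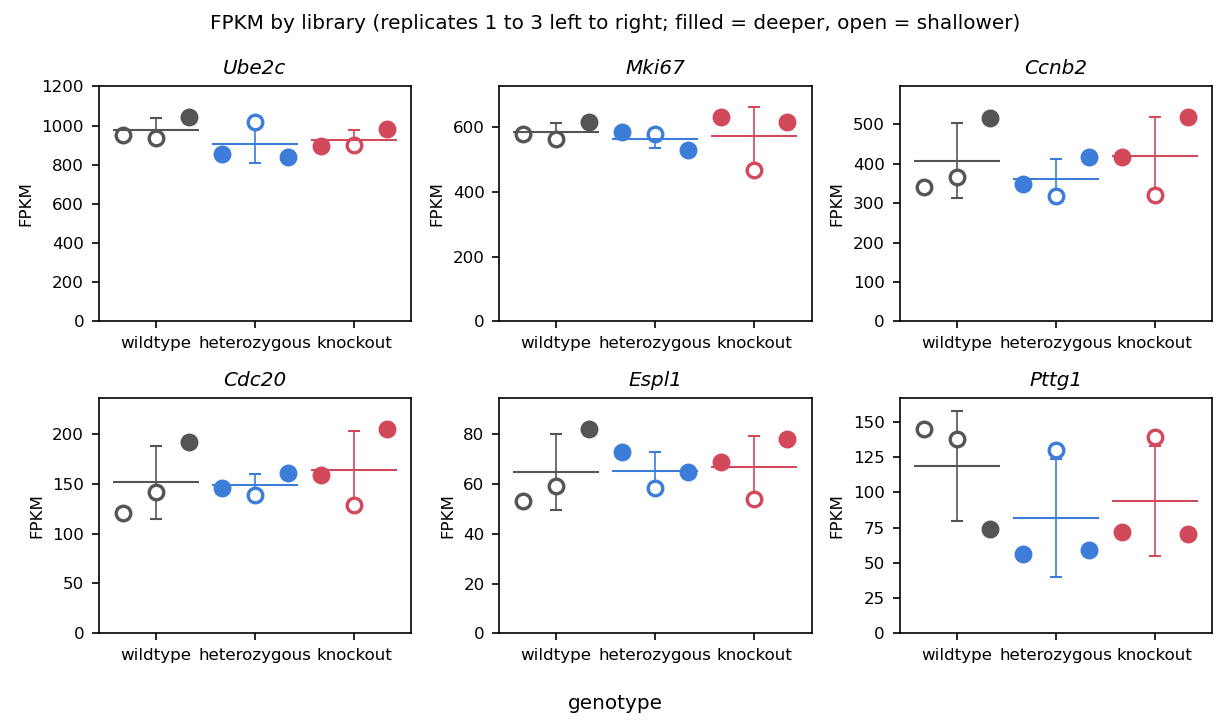
FPKM by library for 6 members, with replicates 1 to 3 from left to right in each genotype, open symbols for the 4 shallower libraries, lines for the mean and bars for 1 SD (n = 3). Pttg1 is high in the 4 open symbols, at 130.4 to 145 FPKM, while Cdc20 and Espl1 are higher in every filled symbol than in every open one.

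The chromosomal passenger complex, which carries Aurora B to centromeres and the midzone, showed a fixed order of its 4 subunits, Cdca8, Incenp, Birc5 and Aurkb, in 9 of 9 libraries. Cdca8, borealin, was at 235, 269.6 and 336 FPKM in wildtype, 282, 238 and 281 in heterozygous and 292, 228 and 353 in knockout libraries. Incenp, the scaffold, was at 192, 236 and 269 FPKM in wildtype, 265, 237 and 226 in heterozygous and 255, 201 and 262 in knockout libraries. Birc5, survivin, was at 149, 164 and 205 FPKM in wildtype, 156, 152 and 171 in heterozygous and 179.8, 143 and 208 in knockout libraries. The kinase Aurkb averaged 133 FPKM, and Cdca8 exceeded it 2.10-fold in the means and 1.83-fold to 2.46-fold in single libraries.

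At the centromere, Cenpa (ENSMUSG00000029177, chromosome 5, 30666777 to 30674830, plus strand, mm10), the histone H3 variant that marks it, was at 144, 151 and 220.3 FPKM in wildtype, 150.4, 125 and 181 in heterozygous and 181, 144 and 230.0 in knockout libraries. Spc25 was at 98.2, 104 and 127 FPKM in wildtype, 111, 89.9 and 111 in heterozygous and 123, 91.7 and 143 in knockout libraries. Nuf2 was at 68.9, 82.2 and 95.2 FPKM in wildtype, 84.6, 78.3 and 87.9 in heterozygous and 91.8, 70.7 and 98.1 in knockout libraries. Spc25 and Nuf2 belong to the Ndc80 complex, which binds microtubules, and its order Spc25, Nuf2, Ndc80, Spc24 held in 7 of 9 libraries with a 1.98-fold span of the means. Cenpe, the kinetochore kinesin, was at 90.3, 77.5 and 86.6 FPKM in wildtype, 77.5, 65.1 and 83.6 in heterozygous and 98.6, 63.4 and 103 in knockout libraries. Cenpe was 1 of only 2 members, with Pttg1, whose highest wildtype library was not replicate 3. Ndc80 averaged 80.2, Spc24 56.1 and Cenpf, a large kinetochore and nuclear matrix protein, 52.0 FPKM.

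The 7 kinesins spanned 10.4-fold in the means, from Kif20b to Kif22. Kif22, the chromokinesin Kid, was at 193, 227 and 291 FPKM in wildtype, 249, 216 and 257 in heterozygous and 260.1, 206 and 312 in knockout libraries. Kif11, the motor Eg5 that pushes spindle poles apart, was at 122, 146 and 190.0 FPKM in wildtype, 166, 142 and 143 in heterozygous and 165, 118 and 165 in knockout libraries. Kif23, the motor subunit of centralspindlin, was at 123, 130.2 and 171 FPKM in wildtype, 146, 125 and 145 in heterozygous and 154, 113 and 191 in knockout libraries. All 3 were lowest in a shallower library and highest in wildtype replicate 3 or knockout replicate 3. The others averaged 86.9 (Kif20a), 86.0 (Kif4), 61.5 (Kif2c, the depolymerase MCAK) and 23.7 FPKM (Kif20b). Kif20a overlaps Cdc23 over 29.3% of its exons and Kif4 overlaps Pdzd11 over 15.1%, both on the opposite strand.

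Of the spindle assembly factors, Nusap1 (ENSMUSG00000027306, chromosome 2, 119618298 to 119651244, plus strand, mm10), which bundles microtubules near chromatin, was at 239.6, 252 and 296 FPKM in wildtype, 221, 254 and 213 in heterozygous and 254, 211 and 249.9 in knockout libraries. Tpx2, the activator of Aurora A, was at 158, 164 and 203 FPKM in wildtype, 169, 169 and 172 in heterozygous and 188, 137 and 210.1 in knockout libraries. Prc1, which cross-links the antiparallel microtubules of the midzone, was at 118, 167 and 208 FPKM in wildtype, 183, 165 and 160.3 in heterozygous and 174, 136 and 171 in knockout libraries. Nusap1 had a narrow range and did not separate the deeper from the shallower libraries. Ckap2, a microtubule-associated protein, was at 55.9, 50.5 and 70.6 FPKM in wildtype, 61.1, 48.2 and 59.6 in heterozygous and 68.3, 49.96 and 77.0 in knockout libraries. Each deeper library was above each shallower one for Ckap2. Hmmr averaged 93.9 and Ckap2l 88.9 FPKM. Prc1 overlaps Rccd1 on the opposite strand over 11.1% of its exons.

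For cytokinesis, Racgap1, the GTPase-activating subunit of centralspindlin, was at 143, 159.7 and 209.8 FPKM in wildtype, 171, 156 and 168 in heterozygous and 185, 133 and 208 in knockout libraries. Ect2, the exchange factor that activates RhoA, was at 79.4, 75.8 and 88.8 FPKM in wildtype, 81.6, 76.6 and 85.9 in heterozygous and 97.4, 62.0 and 110.4 in knockout libraries. Anillin (Anln), a scaffold of the contractile ring, was at 63.1, 74.3 and 91.1 FPKM in wildtype, 88.7, 76.8 and 78.2 in heterozygous and 91.1, 64.7 and 87.9 in knockout libraries. Racgap1 exceeded its partner Kif23 in 9 of 9 libraries, by 1.09-fold to 1.25-fold. For Racgap1, Ect2 and Anln, each deeper library was above each shallower one.

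Of the genes of chromosome structure, Mki67, the Ki-67 protein that coats mitotic chromosomes, was at 578, 561 and 615 FPKM in wildtype, 583, 578 and 529 in heterozygous and 631, 467 and 614 in knockout libraries. Smc4, a condensin ATPase, was at 296, 309.7 and 349.7 FPKM in wildtype, 324, 284 and 321 in heterozygous and 342, 261 and 390.2 in knockout libraries. Ncapd2, a condensin I subunit, was at 236, 296 and 395 FPKM in wildtype, 319, 303 and 296 in heterozygous and 316, 253 and 348 in knockout libraries. Mki67 had a spread of 4.73% of its mean in wildtype, the narrowest of any member there, and stood low only in knockout replicate 2. Top2a, the DNA topoisomerase II of dividing cells, averaged 263 FPKM. The 5 condensin I subunits ran Smc4, Ncapd2, Ncaph, Smc2, Ncapg in the means, an order that 5 of 9 libraries kept, with Smc4 3.37-fold above Ncapg. Ncapg overlaps Lcorl over 13.4% of its exons on the opposite strand.

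Between genotypes, no member was called. For knockout against wildtype, limma with Benjamini-Hochberg adjustment over all genes called 0 of 51 members and 0% of the 9543 genes, and at an unadjusted p below 0.05 it found 0 members and 0.451% of genes. Voom on the recovered reads also called 0 genes, with 38 genes and 0 members at an unadjusted p below 0.05. The median difference of the members was 0.03 (all log2 differences here are on the log2(FPKM + 1) scale), against 0.01 over all genes, and 35 members were positive and 16 negative where 52.7% of all genes were positive. With depth as a term that split became 13 and 38, and with the leukocyte marker mean as a term 44 and 7. Omitting a wildtype library gave 7 and 44 (replicate 1), 25 and 26 (replicate 2) or 46 and 5 (replicate 3), and omitting a knockout library gave 22 and 29, 45 and 6 or 3 and 48 in the same order, so single libraries set the sign. No member had groups that did not overlap, against 2.48% of all genes.

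The member with the lowest p for knockout against wildtype was Cdc25c, at 43.9 ± 8.25 FPKM in wildtype and 52.9 ± 10.1 in knockout libraries (mean ± SD, n = 3 each). Its log2 difference was 0.26 (95% interval -0.15 to 0.67), with an adjusted p of 0.9997 by limma. Nusap1 followed, at 263 ± 29.7 in wildtype and 239 ± 23.6 in knockout, a difference of -0.14 (95% interval -0.44 to 0.16). For Pttg1 the difference was -0.35 (95% interval -1.26 to 0.55), for Cdc25b -0.11 (95% interval -0.42 to 0.20) and for Ckap2 0.13 (95% interval -0.30 to 0.56). Each of the 5 intervals includes 0. The wide one of Pttg1 reflects its spread within the 3 genotypes, which the fit pools, and each genotype held both shallower and deeper libraries. Wildtype held 2 shallower libraries and knockout 1. Cdc25c overlaps Gm3550 on the opposite strand over 12.7% of its exons.

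For heterozygous against wildtype, limma again called 0 members and 0% of genes once p was adjusted, and 0 members and 1.18% of genes at an unadjusted p below 0.05. Voom called 0 genes and had 91 genes and 0 members at that unadjusted p. The member median was -0.04 against -0.0020 over all genes, with 14 members positive and 37 negative where 50.6% of all genes were negative. Quantile normalization turned this split to 41 positive and 10 negative with a median of 0.09, and the leukocyte marker mean as a term to 31 and 20. It was 46 and 5 without wildtype replicate 3, 32 and 19 without heterozygous replicate 2 and 1 and 50 without wildtype replicate 1. No member's groups were apart, against 4.36% of genes. Pttg1 had the largest difference, from 119 ± 39.0 FPKM in wildtype to 82.1 ± 41.9 in heterozygous libraries, -0.58 (95% interval -1.49 to 0.32) with an adjusted p of 0.9999 by limma. Nusap1 was at 229 ± 21.5 in heterozygous libraries, a difference of -0.19 (95% interval -0.49 to 0.11). For Ube2c the difference was -0.11 (95% interval -0.39 to 0.16), for Cenpe -0.17 (95% interval -0.60 to 0.26) and for Ccnb2 -0.16 (95% interval -0.65 to 0.33).

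For knockout against heterozygous, 0 members and 0% of genes were called by limma, with 0 members and 0.587% of genes at an unadjusted p below 0.05, and 0 genes by voom, with 53 genes and 0 members at that unadjusted p. The member median was 0.07 against 0.0037 over all genes, with 40 members positive and 11 negative where 51.1% of genes were positive. Quantile normalization gave 22 and 29 with a median of -0.01, and leaving out knockout replicate 3 gave 10 and 41, whereas without knockout replicate 2 it was 50 and 1. No member's groups were apart, against 4.48% of genes. Cenpa had the lowest p, at 152 ± 28.2 FPKM in heterozygous and 185 ± 43.3 in knockout libraries, a difference of 0.27 (95% interval -0.24 to 0.78) with an adjusted p of 0.9996 by limma. For Cenpe it was 0.20 (95% interval -0.23 to 0.63), for Ckap2 0.19 (95% interval -0.24 to 0.62), for Spc25 0.18 (95% interval -0.24 to 0.59) and for Ccnb2 0.20 (95% interval -0.29 to 0.69). The 3 contrasts share libraries, so they are not independent of each other.

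The intervals bound what these libraries could show. In each contrast 50 of 51 members had a 95% interval that lay within 2-fold either way, the exception being Pttg1, and the median interval reached 0.43 on the log2 scale to each side. These intervals are unadjusted, whereas calls were adjusted over all genes tested. A difference of that size or below in a single member would thus for most members not be called here, and larger ones could also go uncalled. For knockout against wildtype the lowest unadjusted p of any gene by limma, 0.00089, had an adjusted p of 0.9997. Counting error was mostly small beside the spread, with a median of 1.98% of the count at the lowest-read library of each member and at most 4.56%.

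**Figure D3:**
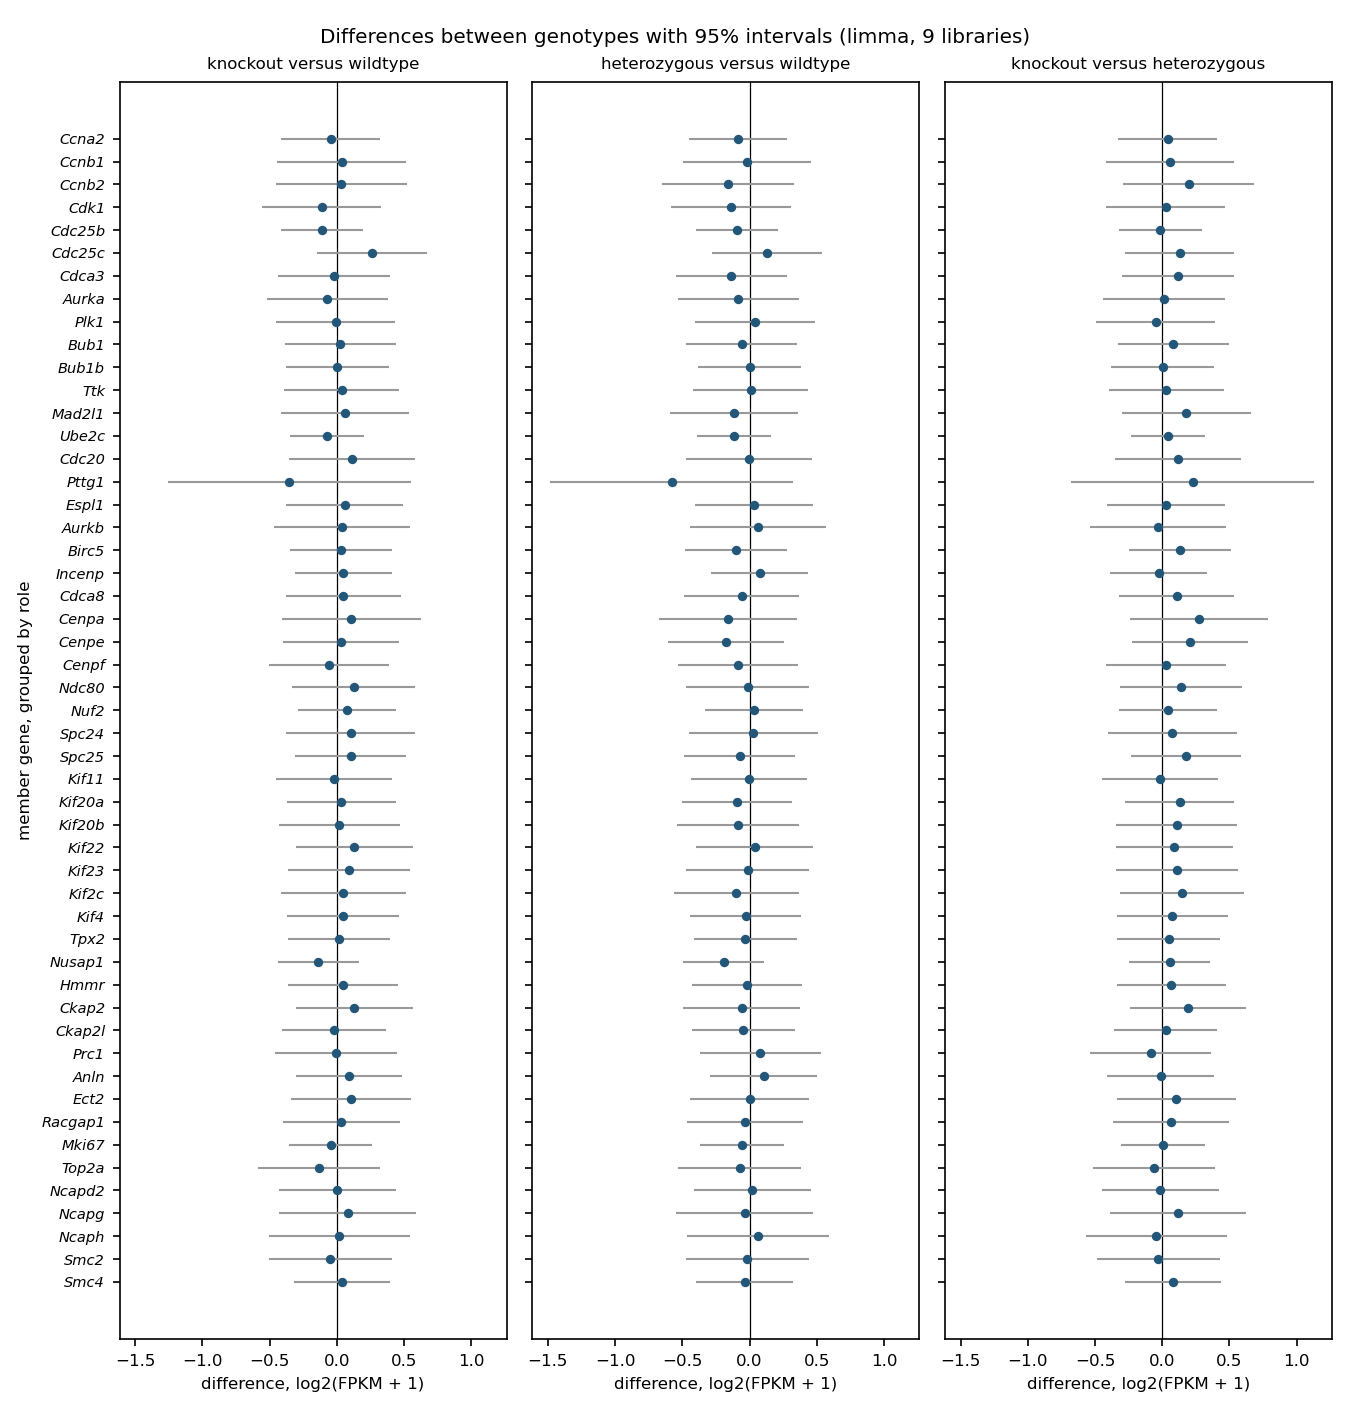
Difference of each member between genotypes on the log2(FPKM + 1) scale, with points for limma estimates and lines for 95% intervals, over 9 libraries. Every interval crosses 0, and the interval of Pttg1 is the widest in each panel.

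The median SD of a member within a genotype on the log2(FPKM + 1) scale was 0.30 for the knockout, 0.25 for the wildtype and 0.13 for the heterozygous libraries, and the members shared much of that spread. In wildtype, replicate 3 was the highest of the 3 libraries for 49 of 51 members, where it was the highest for 47.8% of all genes, and Pttg1 and Cenpe were the exceptions. In knockout, replicate 2 was the lowest for 49 of 51, where it was the lowest for 46.5% of all genes, with Ube2c and Pttg1 as exceptions. In heterozygous libraries replicate 2 was the lowest for 38 of 51, against 38.9% of all genes. Over all 9 libraries, the highest value was in knockout replicate 3 for 25 members (11.1% of genes) and in wildtype replicate 3 for 23 (31.1%), and the lowest was in knockout replicate 2 for 27 (19.5%) and in wildtype replicate 1 for 16 (18.8%). The members share these libraries, so these counts describe 9 libraries and not 51 separate events.

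**Figure D4:**
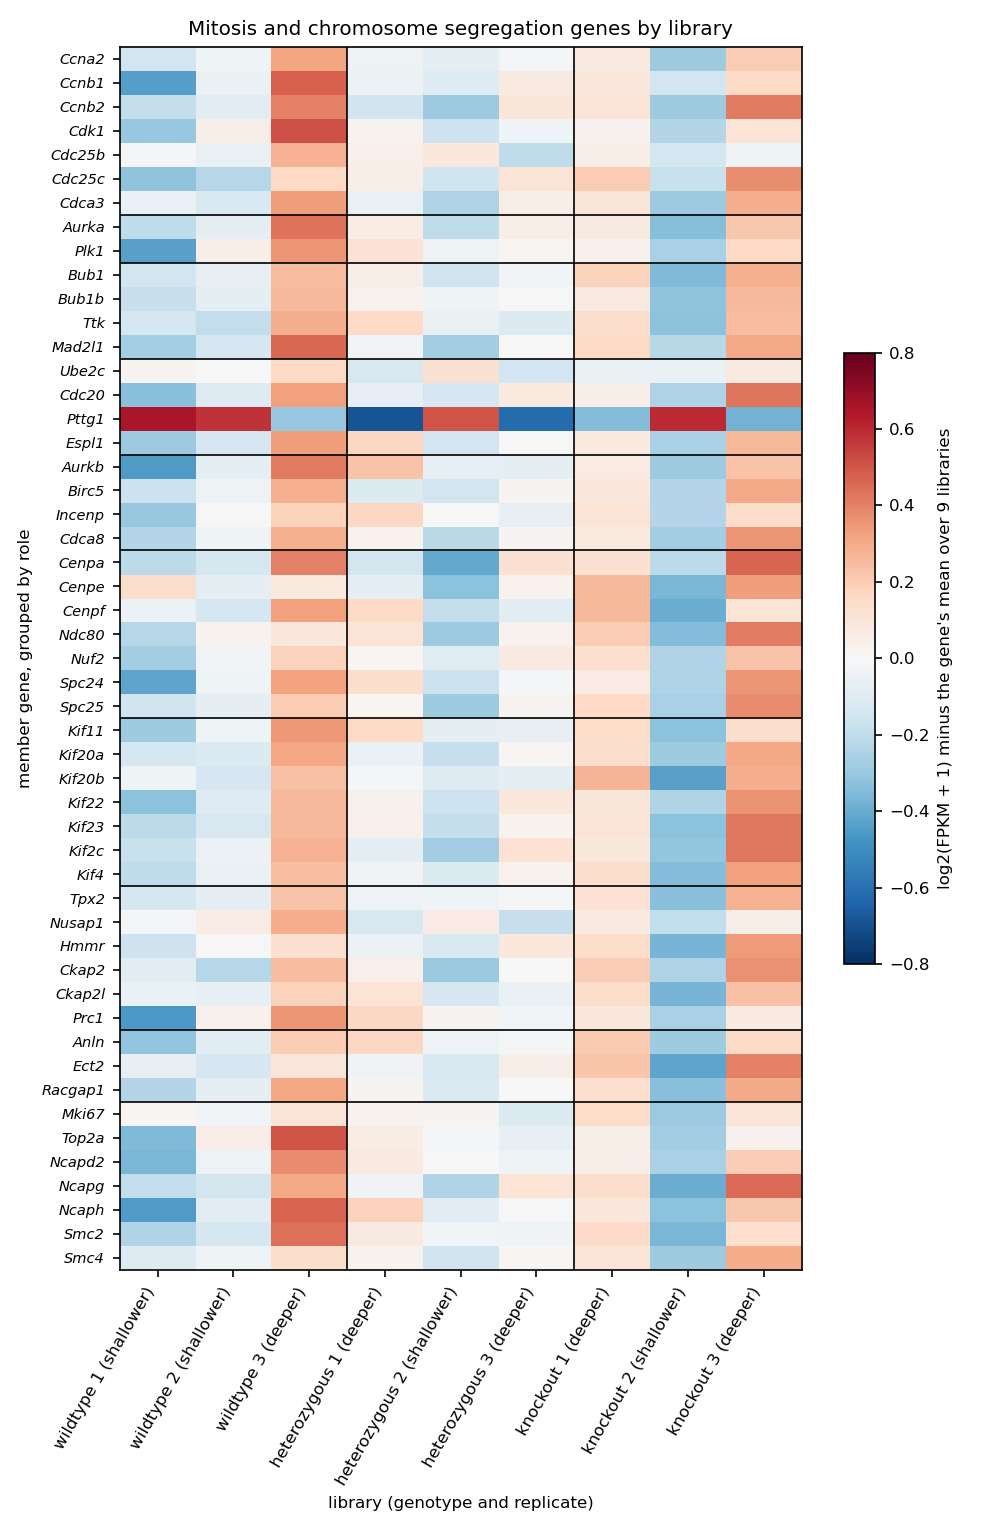
Each of the 51 members in each library, as log2(FPKM + 1) minus the gene's mean over 9 libraries, with horizontal lines between roles and vertical lines between genotypes. The columns of wildtype replicate 3 and knockout replicate 3 are mostly red (higher), those of wildtype replicate 1 and knockout replicate 2 mostly blue (lower), and Pttg1 is reversed.

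The members differed between the deeper and the shallower libraries. For 25 of 51 members (49.0%), each of the 5 deeper libraries lay above each of the 4 shallower ones, against 6.86% of all genes, and the reverse held for 1 member, Pttg1, against 5.66% of all genes. The mean was higher in the deeper libraries for 49 of 51 members (96.1%), the exceptions being Pttg1 and Ube2c, against 55.6% of all genes, with a median difference of 0.33 on the log2(FPKM + 1) scale against 0.04. Among the 49 members with a higher mean in the deeper libraries, Ncapg had the largest difference, 0.44, at 108 FPKM in deeper and 78.8 in shallower libraries, and Cenpa followed with 0.44 and Ncaph with 0.43. The differences closest to 0 were those of Nusap1 (0.04), Ube2c (-0.05), Cdc25b (0.06) and Mki67 (0.13), which are among the 12 most abundant members. The scaling mattered for the count but not its direction, with 22 members (43.1%) against 5.91% of genes after quantile normalization, and 41 members (80.4%) against 11.3% of genes with values rescaled to the library total. Of the 4 shallower libraries 2 are wildtype, and the part of depth, leukocyte RNA or erythroid RNA in these differences was not tested.

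The leukocyte markers and the S phase genes were set beside the members library by library. The mean of the members on the log2(FPKM + 1) scale was 6.83, 6.96 and 7.29 in wildtype, 7.03, 6.90 and 7.002 in heterozygous and 7.13, 6.75 and 7.26 in knockout libraries. The leukocyte marker mean was 4.8, 4.33 and 2.08 in wildtype, 3.81, 4.25 and 4.01 in heterozygous and 3.496, 4.75 and 3.83 in knockout libraries. Within wildtype and within knockout the library with the highest leukocyte mean had the lowest member mean. In heterozygous libraries the same held, with replicate 2 at 4.25 for the leukocyte mean and 6.90 for the members. The mean of 40 DNA replication and S phase genes was 6.14, 6.45 and 7.03 in wildtype, 6.49, 6.47 and 6.39 in heterozygous and 6.59, 6.23 and 6.50 in knockout libraries. In wildtype its order was that of the members, whereas in heterozygous libraries it was lowest in replicate 3 and in knockout libraries highest in replicate 1. Wildtype replicate 3 and knockout replicate 3 were alike in the members but not in the S phase genes, and the members lay 0.26 above the S phase mean in the first and 0.76 above it in the second. The part of other blood cells in these values was not tested.

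**Figure D5:**
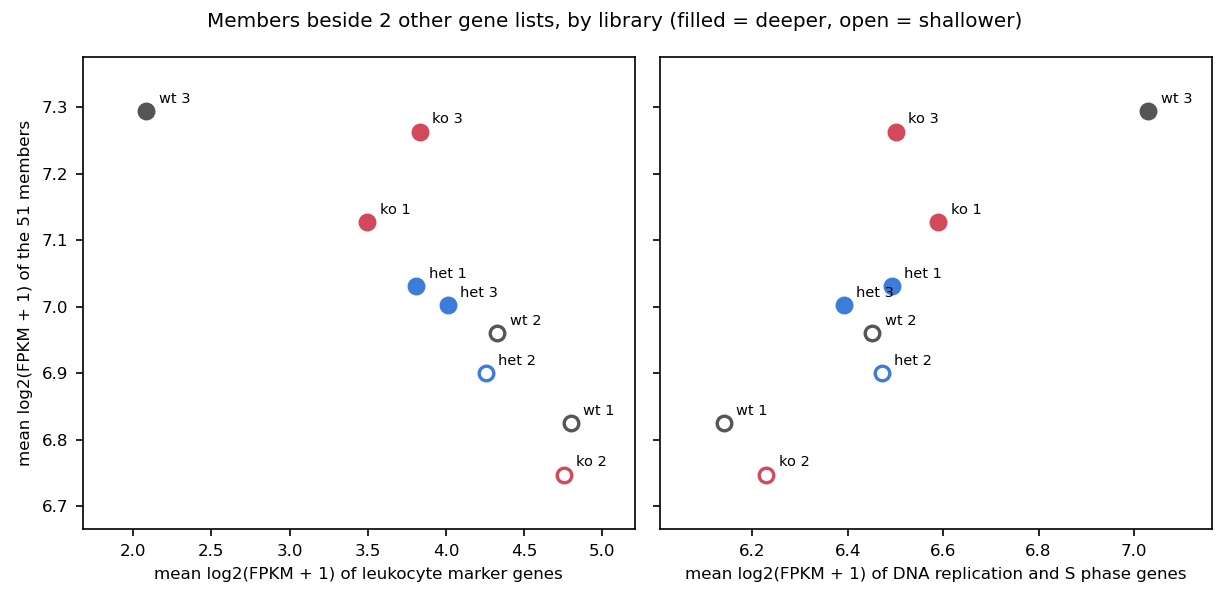
Mean log2(FPKM + 1) of the 51 members in each library against that of the leukocyte markers (left) and of the 40 S phase genes (right), 1 point per library, with open symbols for the 4 shallower libraries. Wildtype replicate 3 (wt 3) has the highest member mean, 7.29, with the lowest leukocyte mean, 2.08, and wildtype 1 and knockout 2 have the lowest member means.

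The heterozygous libraries were the most alike. The median coefficient of variation of the members was 8.78% in heterozygous, 18.2% in wildtype and 19.9% in knockout libraries, against 11.3%, 20.6% and 17.5% over all genes tested. It was smallest in heterozygous libraries for 45 of 51 members, in wildtype for 4 and in knockout for 2. That count was not made over all genes, whose median was also lowest in heterozygous libraries, so it is not particular to the members. Tpx2 was the tightest, with 1.10% in heterozygous libraries, and Pttg1 the widest, with 51.01% there. The value of Tpx2 is below its counting error of 1.36% at the lowest-read library. The same holds for Kif20b, with 3.28% in heterozygous libraries against 3.37%. With 3 libraries a group, these spreads were not tested against each other.

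Other genes of the pathway gave no call in any of the 3 contrasts by limma, with 0 of each list at an adjusted p below 0.05. For knockout against wildtype the medians of the mitotic lists lay between -0.04 for the anaphase-promoting complex and its regulators (17 genes) and 0.06 for the kinetochore and checkpoint list (32 genes) and for the spindle, kinesin and centrosome list (19 genes). The medians were 0.02 for the transcription of mitotic genes (13 genes), -0.01 for entry into mitosis (13), -0.02 for cohesin (13), -0.02 for condensin II (3) and 0.05 for cytokinesis (6). None of these lists had a member at an unadjusted p below 0.05, in this contrast or in the others. The 40 S phase genes had a median of -0.12 with 3 positive and 37 negative for knockout against wildtype, of -0.09 with 3 and 37 for heterozygous against wildtype, and of -0.01 with 17 and 23 for knockout against heterozygous. Without wildtype replicate 3 the first 2 splits turned to 39 and 1 and to 38 and 2, quantile normalization turned the second to 22 and 18, and without knockout replicate 2 the last turned to 34 and 6. The 14 genes of exit from the cell cycle had medians of 0.05, -0.0068 and -0.0029 in the same order.

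Several of these partners were as abundant as the members. Ube2s, the E2 that extends the ubiquitin chains begun by Ube2c, ranged from 603 to 861 FPKM, and Fzr1, the Cdh1 activator of late mitosis and G1, from 504 to 703. E2f4, a DREAM subunit, ranged from 285 to 426 and its partner Tfdp1 from 108 to 147. The Cdk1-binding Cks2 ranged from 184 to 286 and Cks1b from 103 to 218. The cohesin genes Rad21 (219 to 339) and Smc1a (123 to 191) and the condensin II genes Ncaph2 (130.5 to 216) and Ncapd3 (96.1 to 165) lay in the range of the condensin I members. Pmf1 (74.2 to 142), Bub3 (71.6 to 123), Spag5 (140.0 to 223), Ran (187 to 258), Rhoa (159 to 193) and Cit (70.7 to 106) led the kinetochore, spindle and cytokinesis lists. The S phase genes Pcna and Rrm2 ranged from 541 to 886 and from 483 to 683, and Gadd45a and Ccnd3, of the exit list, from 241 to 375 and from 145 to 350.3 FPKM.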

How the data were processed

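RNA sequencing libraries of sorted CD71+Ter119+ splenocytes, 3 per genotype, were analysed from 1 table of FPKM values that the authors deposited, with 1 column per library. TopHat, Picard, DESeq2 and the build mm10 are named in the submitters' processing notes, with no versions or roles. For strandedness, read pairing and annotation the sources used here give nothing, so the values could be RPKM, and overlapping genes could share reads.

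The values of a gene were tested for a common step that stands for 1 read. This held to within 0.05 of a read for all 14147 genes detected in 2 or more libraries. Many steps were tried, so genes detected in few libraries could match in any case. The check rests on the 11276 genes detected in all libraries, where the scale between libraries was that of median-of-ratios size factors. Reads per library were recovered from the steps. A count of 0 allows up to 3 reads, and such limits cover counting error only. Positions and exons are from GENCODE M21 on the same build, and 180 rows without a symbol were not used for names.

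A linear model (limma 3.58.1 in R 4.3.3, trended prior variance) was fitted to log2(FPKM + 1), with 1 mean per genotype over 9 libraries, for the 9543 genes that reached 1 FPKM in 3 or more libraries. The pseudocount understates fold changes of low genes. Each of 3 contrasts was 2-sided, with Benjamini-Hochberg adjustment over all genes tested and a threshold of 0.05. The script was tested on simulated data. Recovery, descriptions and figures used Python 3.11.15 with pandas 2.3.3, numpy 2.4.6 and matplotlib 3.10.9. Promoters came from a RefSeq table on GRCm38.

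The members, the lists of other genes and the tests were chosen with earlier results of these data known. Values in every library were given for the 3 most abundant members of each role, for members called, and for the 5 with the lowest p in each contrast; of the other lists the 2 most abundant genes were named. Alternatives were 2 pseudocounts, 2 filters, quantile normalization, no variance trend, a replicate block, only the libraries of a pair, voom on recovered reads, a depth term, a leukocyte marker term and each library left out. The 2 other scalings of the library patterns were added after seeing the data. The labels number the replicates but tie a number to no litter, batch or day. As a check of pairing, deviations from the group means were correlated between libraries of equal number. Knockout and heterozygous libraries gave 0.20, 0.18 and 0.41, all above 0.1, which is the ground for a pairing in these correlations. Wildtype libraries gave -0.57, 0.51 and 0.33 against knockout and 0.13, 0.18 and 0.0014 against heterozygous libraries, which did not all exceed 0.1. Replicate 2 of each genotype was shallower and replicate 3 of each was deeper, so shared depth and a pairing cannot be told apart here. The estimates and p-values of the report are from the fit without a block in all 3 contrasts, and the block, fitted over all 9 libraries, was an alternative only.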

Additional observations from a re-analysis of the deposited data

How the results depend on the processing

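No gene and no member was called by limma at an adjusted p below 0.05 in any contrast under any alternative run, with at most 3 members at an unadjusted p below 0.05, for knockout against heterozygous without knockout replicate 2, where 499 genes were. With the replicate number as a block, the count of called genes stayed at 0, the paired fit had 56, 161 and 66 genes at an unadjusted p below 0.05 (knockout against wildtype, heterozygous against wildtype, knockout against heterozygous), and the member medians were 0.03, -0.04 and 0.07, the same as without it. The block took the members at an unadjusted p below 0.05 from 0 to 1 for heterozygous against wildtype (Pttg1, -0.58), and changed no call at the adjusted threshold. With 1 library left out at a time, the member median ranged between -0.10 and 0.20 over the fits for knockout against wildtype. It ranged between -0.14 and 0.08 for heterozygous against wildtype and between -0.05 and 0.22 for knockout against heterozygous. Quantile normalization gave medians of 0.05, 0.09 and -0.01, and a depth term -0.03, -0.08 and 0.05. With values rescaled to the library total, added after seeing the data, the count of members with each deeper library above each shallower one was 41 in place of 25. The precision is that of 3 libraries per genotype with 7052111 to 14231427 reads each.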
